A study of Mus musculus with 18 samples.

Results

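The genes described here encode the machinery that brings proteins into mitochondria, measured by RNA-seq in the epididymal white adipose tissue (eWAT) of HFD-fed mice. The members were all rows whose symbol starts with Timm or Tomm, together with Samm50, Mtx1, Mtx2, Pam16, Dnajc19, Grpel1, Pmpca, Pmpcb, Chchd4 and Gfer, without pseudogenes. There were 35 members among the 21756 genes of the Parkin experiment and 35 among the 27356 genes of the AAV8 experiment. Of the 35, 11 act at the outer membrane, 8 in the intermembrane space, 11 at the inner membrane and 2 in the matrix, and 3 are named after the machinery without being part of a translocase (Tomm34, Timmdc1 and Tomm6os).

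The Parkin experiment set 5 ParkinAdi mice against 5 Control f/f mice. ParkinAdi mice were males on a C57BL/6J background in which loxP-flanked Parkin was removed by a Cre recombinase under the adiponectin promoter, which acts in adipocytes, and Control f/f mice had the floxed alleles. Both genotypes were about 4 to 6 months old and ate a diet with 45% of its energy as fat. In the AAV8 experiment, eWAT of 2-month-old male C57BL/6J mice that had eaten HFD for 4 weeks received AAV8-Nqo1 on the left and AAV8-Control on the other side of the same mice, and was taken 4 weeks later (4 pads per vector, so vector and side cannot be told apart). Nqo1 is a quinone reductase.

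Almost all mitochondrial proteins are made in the cytosol and enter through the TOM complex, the general entry gate of the outer membrane. From there beta-barrel proteins go to the SAM complex, small cysteine-rich proteins to the Chchd4 (Mia40) relay in the intermembrane space, metabolite carriers to the TIM22 complex, and proteins with a cleavable presequence to the TIM23 complex and its motor. Import through TOM and TIM23 also decides the fate of Pink1, the kinase upstream of Parkin, which is imported and degraded in healthy mitochondria and held at TOM in damaged ones.

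The Parkin values were regularized log (rlog) values, the authors' log2-scale normalized values with shrunken differences, 1 library per mouse. The mice are called P1 to P5 and C1 to C5, and values per mouse below run in that order. The library of mouse P2 held Ces5a, a carboxylesterase of the epididymis, at 20.05, against 5.59 to 5.90 in the other ParkinAdi mice and 5.89 to 8.45 in Control f/f mice. Mouse P5 held another of its transcripts, the secreted peroxidase Gpx5, at 12.70, against 4.51 to 5.71 in the other ParkinAdi mice and 4.12 to 5.89 in Control f/f mice. Of 8 epididymal markers in the table, 4 were highest in P2 and 4 in P5. The main summaries of the members are given again below without P2 and without both. The libraries further formed a pair of sets: in C1, C2, C3, P1, P2 and P5 the deviation of a gene from its mean rose with transcript length (Spearman's rho 0.376 to 0.51 over 19012 genes), and in C4, C5, P3 and P4 it fell (rho -0.537 to -0.469). These are called the positive and the negative library set, which are groups of libraries seen in the data and not groups of the study. The mean of the 13 adipocyte markers was between 14.83 and 15.84 in ParkinAdi mice and between 14.77 and 15.82 in Control f/f mice. Of these, 6 had a difference above 0 and 7 below. Only the adipokine Lep was at an unadjusted p under 0.05, with a difference of -0.86 (adjusted p = 0.644 in limma). Of 15 macrophage markers 14 were lower in ParkinAdi mice, 9 of them at an unadjusted p under 0.05 in limma, and their mean was between 10.20 and 10.67 in ParkinAdi mice and between 10.55 and 11.52 in Control f/f mice. All 11 mesothelial markers were higher, 9 of them at that p, with a mean between 7.82 and 8.94 in ParkinAdi mice and between 6.52 and 7.91 in Control f/f mice. Of these, the keratins Krt8 and Krt18 were highest in P2 (9.58 and 10.84) and P5 (9.05 and 9.53), against at most 8.64 and 9.21 in the other mice. The part of these cell types in the members' values was not tested, and in bulk tissue fewer cells of a type and less RNA per cell cannot be told apart.

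Levels were compared between members as the authors' mean normalized count over the libraries, per kilobase of annotated exons. In the Parkin experiment they spanned 7.25 to 4533, with a median of 289 against 68.6 over all genes, and 30 of 35 members were above the median gene. Timm8b, a small chaperone of the intermembrane space, was highest at 4533, followed by Tomm7, the small TOM subunit that is needed to keep Pink1 at the gate, at 3726, and Tomm22, the central TOM receptor, at 1454. Next came Timm13, which works with the Timm8 proteins, at 895, Grpel1, the nucleotide exchange factor of the motor, at 885, and Tomm5, another small TOM subunit, at 877. These are means without an error, so the order of neighbours cannot be tested.

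Subunits of a complex were not at equal levels by this measure. It divides by all annotated exons of a gene, 518 bases in Timm8b and 9777 in Tomm70a, whichever transcripts are present. Comparisons between genes are therefore approximate. Within TOM, the presequence receptor Tomm20 was at 376, the carrier receptor Tomm70a at 243 and the pore Tomm40 at 165, against 1454 for Tomm22. Within SAM, the insertase Samm50 was at 324, Mtx2 at 449 and Mtx1 at 158. Within TIM23, the receptor Timm50 was at 598, the channel subunit Timm23 at 180 and Timm21, which links TIM23 to TOM and to the respiratory chain, at 125. In the motor, Timm44, which docks mitochondrial Hsp70 on the channel, was at 246, the J protein Dnajc19 at 169 and its regulator Pam16 at 39.5. The 2 subunits of the matrix processing peptidase, which cuts presequences off, were at 351 (Pmpca) and 650 (Pmpcb). Chchd4, the oxidoreductase of the disulfide relay, was at 118, and Gfer, the oxidase that recharges it, at 557.

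Among paralogs, 1 form was the higher by the same measure in some pairs. Timm17a and Timm17b, alternative channel subunits of TIM23, were close at 311 and 289. Tomm40 stood at 165 and its relative Tomm40l at 42.3, and 64.3% of the exon length of Tomm40l is shared with Nr1i3 on the opposite strand. Timm8b stood at 4533 and Timm8a1, the X-linked relative whose human counterpart is mutated in a deafness-dystonia syndrome, at 42.6. Timm8a2 and Tomm20l are not analysed here.

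At the lower end, Tomm6 was at 7.25 and Tomm6os at 8.29. The first lies on chr17:47686646-47688386 (minus strand) and the second, an antisense transcript, on chr17:47687610-47691083 (plus strand; GRCm38). Of the exon length of Tomm6, 19.4% is shared with Tomm6os and 76% with Gm21981, and 41.5% of that of Tomm6os is shared with Prickle4. No source used here says that reads were counted by strand, so reads of these genes cannot be told apart and the values of both are uncertain. Exons of 9 members share over 10% of their length with another gene, these among them.

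**Figure D1:**
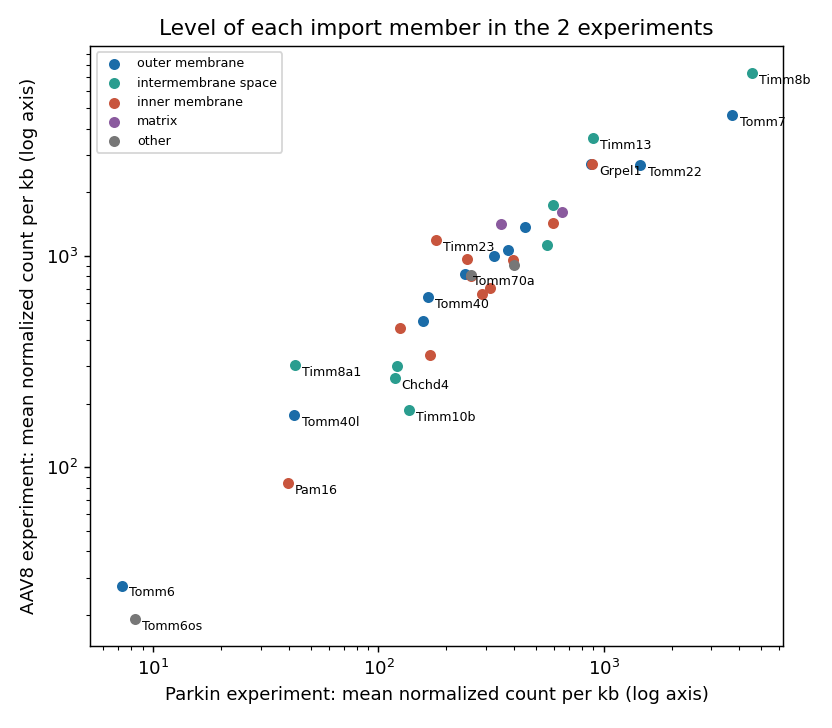
Mean normalized count per kilobase of exons for the 35 members, in the Parkin experiment on the horizontal axis and in the AAV8 experiment on the vertical axis, both log axes, coloured by compartment. Timm8b and Tomm7 are at the upper right in both, and Tomm6 and Tomm6os at the lower left. The 2 tables were normalized separately.

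The AAV8 experiment gave a similar order. Only the authors' mean over the pads of that experiment was used there, so AAV8-Nqo1 pads could not be set against AAV8-Control pads. Which pads entered the mean is not stated. The paper's figure legends give fewer mice per group for RNA-seq than the sample labels, in both experiments. Across the 35 members the order of levels agreed closely between the experiments (Spearman's rho 0.95, a description, since points share gene length and sequence), and 9 of the 10 highest members were the same. Timm8b was again highest at 7320 and Tomm7 next at 4633, and Tomm6os lowest at 19.2. The tables were normalized separately, and the median ratio of AAV8 over Parkin was 2.93 for members and 3.37 over 19083 genes. Against that, Timm8a1 had a ratio of 7.15 (305 in the AAV8 experiment and 42.6 in the Parkin experiment) and Timm23 of 6.58 (1184 and 180), which moved Timm23 up by 11 places among the members, to place 12. The ratio was lowest for Tomm7, at 1.24, and Timm10b, the small chaperone that docks on TIM22, at 1.37. By compartment the median ratio was 3.10 for outer membrane members and 2.41 for inner membrane members.

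No member passed the test between the genotypes. Of the 34 members that passed the filter on low values (Tomm6 did not), 0 were higher and 0 were lower in ParkinAdi eWAT at an adjusted p under 0.05 in limma (smallest adjusted p of a member 0.882), as for all 19012 genes tested, of which 0% were called in either direction (smallest adjusted p 0.62). At an unadjusted p under 0.05, 1 member was higher and 0 lower, against 1.46% of all genes higher and 3.56% lower. No member had groups that did not overlap, against 1.06% of all genes. The median difference, ParkinAdi minus Control f/f, was 0.02 on the log2 scale for the members, 20 of which were above 0 and 14 below, against 0.03 over all genes.

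The intervals show how large a difference in rlog values could have been missed. As rlog differences are shrunken, larger differences in transcript level could lie behind them. The 95% confidence interval of the difference lay within 1 log2 unit of 0 for 32 of the 34 members, the exceptions being Tomm7 and Timm8b. With the library set as a covariate, the median standard error of the members was 0.11, against 0.27 without it, and the interval lay within 0.5 of 0 for 31 of 34, the exceptions being Timm21, Tomm6os and Timm8a1. The median over all genes fell as well, from 0.22 to 0.13. The sets were read from these same values, so the intervals of that fit may be too narrow. In that fit 2 members were at an unadjusted p under 0.05, both higher (Timm21 and Tomm6os), and none lower, against 4.43% of all genes higher and 7.33% lower, and the smallest adjusted p of a member was 0.325.

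**Figure D2:**
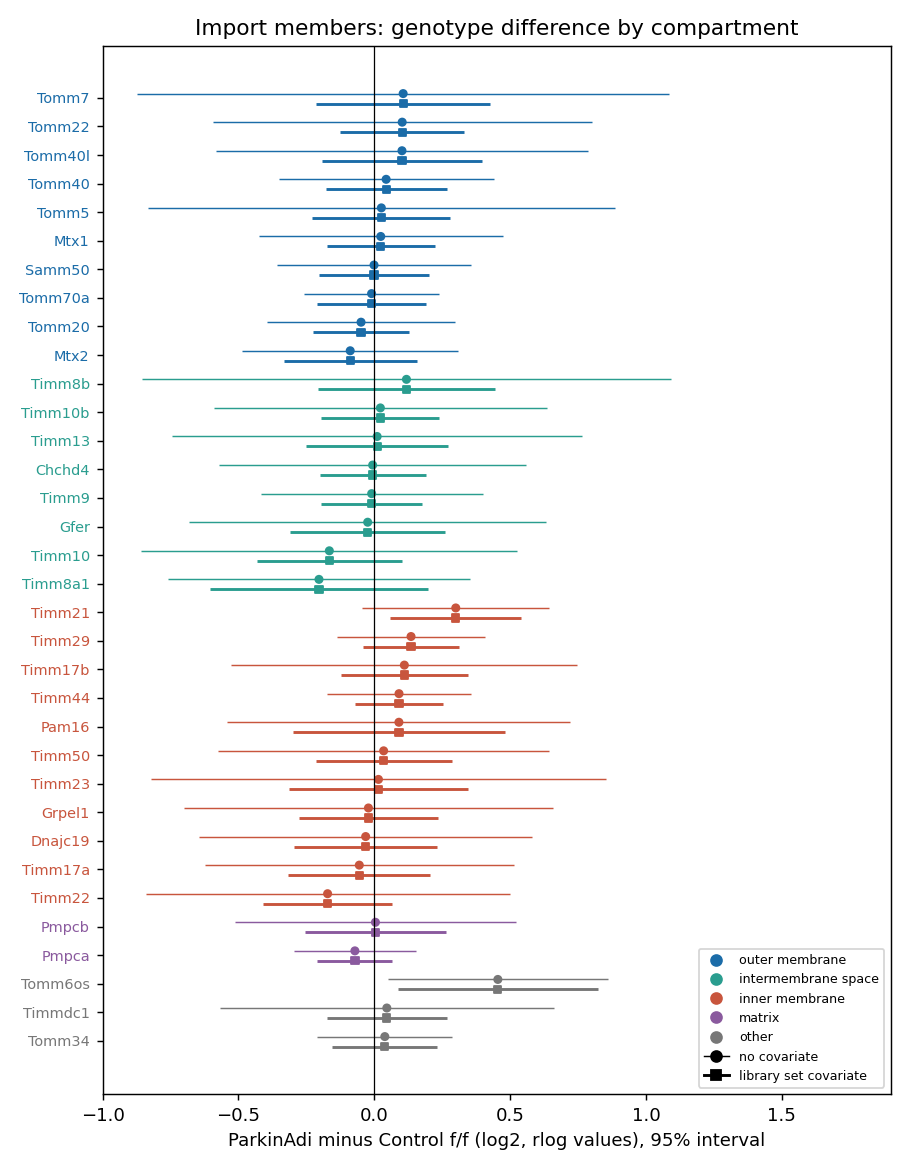
Difference between ParkinAdi and Control f/f mice in log2 (rlog) units for each of the 34 members, with its 95% confidence interval, without a covariate (circles, thin lines) and with the library set as a covariate (squares, thick lines), ordered by compartment. Of the thin lines only that of Tomm6os leaves out 0, and of the thick lines those of Timm21 and Tomm6os.

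Outer and inner membrane members had near-equal medians. The median difference was 0.03 for the 10 outer membrane members tested (range -0.09 to 0.11, 6 above 0) and 0.03 for the 11 inner membrane members (range -0.17 to 0.30, 7 above 0). It was -0.01 for the 8 intermembrane space members (3 above 0). The mean over inner membrane members minus that over outer membrane members was -0.68, -0.69, -0.56, -0.70 and -0.67 in P1 to P5, against -0.67, -0.71, -0.69, -0.63 and -0.71 in C1 to C5, so the balance of the membranes varied by about 0.15 between mice and the groups overlapped.

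Tomm6os was the only member at an unadjusted p under 0.05 in the comparison without a covariate. It was at 4.58, 5.12, 4.68, 4.58 and 4.81 in the ParkinAdi mice, against 4.28, 4.09, 4.73, 4.16 and 4.24 in the Control f/f mice. Of the controls only C3 reached into the ParkinAdi range, and mouse P2 was highest. The difference was 0.46 (95% interval 0.05 to 0.86), with p = 0.031 and an adjusted p of 0.882 in limma, and p = 0.032 in a two-sided exact permutation test over all arrangements of 5 against 5 mice. When each mouse was left out in turn, the difference ran between 0.36 (without P2) and 0.56 (without C3), and its unadjusted p in limma was above 0.05 without P2 (0.070), P5 (0.060), C1 (0.052), C2 (0.076), C4 (0.065) or C5 (0.059), and under quantile normalization (0.054). It is a transcript of low level, and its share of antisense and neighbouring reads is uncertain.

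Timm21 came next. It was at 8.94, 8.71, 9.11, 9.27 and 8.77 in the ParkinAdi mice, against 8.31, 8.54, 8.86, 8.84 and 8.75 in the Control f/f mice. The 2 highest values were those of P4 and P3, the lowest those of C1 and C2, and the groups overlapped between 8.71 and 8.86. The difference was 0.30 (95% interval -0.04 to 0.64), with p = 0.081 in limma and p = 0.087 in the exact permutation test, and p = 0.019 with the library set as a covariate (adjusted p = 0.325). No other inner membrane member reached a difference of 0.15 upwards: Timm29, a TIM22 subunit found in animals but not in yeast, was at 0.14 (-0.14 to 0.41).

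**Figure D3:**
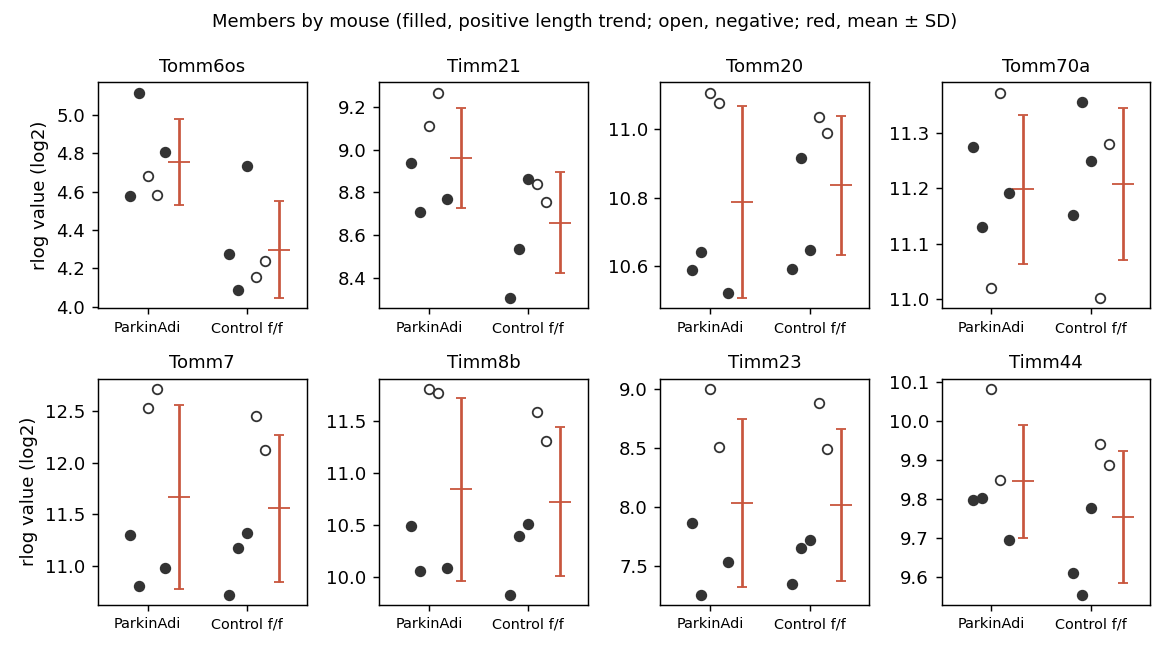
Values per mouse of 8 members in rlog (log2) units, ParkinAdi left of Control f/f, each panel with its own axis. Filled points are libraries of the positive set and open points those of the negative set, and the red bar is the mean with its SD over 5 mice. In Tomm7, Timm8b and Timm23 the open points stand above the filled ones in both genotypes, and in Tomm6os and Tomm70a they do not.

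Among the TOM receptors, Tomm20 was at 10.59, 10.64, 11.11, 11.07 and 10.52 in the ParkinAdi mice, against 10.59, 10.92, 10.65, 11.04 and 10.99 in the Control f/f mice. Tomm22 was at 10.72, 10.59, 11.76, 11.76 and 10.51 in the ParkinAdi mice, against 10.38, 10.74, 10.78, 11.56 and 11.35 in the Control f/f mice. In both, the highest values were those of P3, P4, C4 and C5, and the genotypes overlapped over nearly the whole range (differences -0.05 (-0.39 to 0.30) and 0.10 (-0.59 to 0.80), 95% intervals in parentheses here and below). Tomm70a, which takes carrier precursors from cytosolic chaperones, was at 11.28, 11.13, 11.02, 11.37 and 11.19 in the ParkinAdi mice, against 11.15, 11.36, 11.25, 11.002 and 11.28 in the Control f/f mice. It varied least of the receptors, with an SD of 0.13 in ParkinAdi and 0.14 in Control f/f mice (n = 5 each), and its lowest values were those of C4 and P3.

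The pore Tomm40 was at 9.52, 9.29, 9.94, 9.59 and 9.19 in the ParkinAdi mice, against 9.13, 9.26, 9.44, 9.85 and 9.64 in the Control f/f mice, and its relative Tomm40l at 7.53, 7.03, 8.28, 8.07 and 7.17 in the ParkinAdi mice, against 6.93, 7.18, 7.34, 8.26 and 7.87 in the Control f/f mice. Their differences were 0.04 (-0.35 to 0.44) and 0.10 (-0.58 to 0.79). Tomm7, the highest of the outer membrane members, was at 11.30, 10.81, 12.53, 12.71 and 10.98 in the ParkinAdi mice, against 10.72, 11.18, 11.32, 12.45 and 12.13 in the Control f/f mice. It separated P3, P4, C4 and C5, all above 12, from the other 6 mice, all at most 11.32, and had the largest upward difference of the outer membrane, 0.11 (-0.87 to 1.09). Tomm6 was between 2.46 and 3.53 in ParkinAdi mice and between 2.38 and 3.29 in Control f/f mice, below the filter.

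In the SAM complex, Samm50 was at 10.98, 10.77, 11.22, 11.20 and 10.87 in the ParkinAdi mice, against 10.64, 10.82, 11.04, 11.42 and 11.14 in the Control f/f mice. Its difference was -0.00 (-0.36 to 0.36). Mtx2, which pairs with Mtx1 on the cytosolic face of the complex, was at 10.52, 10.24, 10.83, 11.02 and 10.32 in the ParkinAdi mice, against 10.35, 10.77, 10.55, 10.69 and 11.01 in the Control f/f mice, the largest downward difference of the outer membrane at -0.09 (-0.49 to 0.31). The genotypes overlapped in each gene.

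In the intermembrane space, Chchd4 was at 8.88, 8.59, 9.61, 9.72 and 8.80 in the ParkinAdi mice, against 8.77, 8.98, 8.85, 9.56 and 9.48 in the Control f/f mice. Timm8b was at 10.49, 10.06, 11.81, 11.77 and 10.09 in the ParkinAdi mice, against 9.83, 10.39, 10.51, 11.59 and 11.31 in the Control f/f mice. Timm8a1, the lowest of the compartment, was at 5.59, 5.17, 5.80, 6.46 and 5.45 in the ParkinAdi mice, against 5.77, 6.01, 5.46, 5.95 and 6.31 in the Control f/f mice. Timm8b had the largest upward difference of this compartment, 0.12 (-0.85 to 1.09), and Timm8a1 the largest downward one, -0.20 (-0.76 to 0.35), neither beyond the spread between mice. The other chaperones (Timm9, Timm10, Timm10b, Timm13) and Gfer lay between -0.17 and 0.02.

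In the TIM23 complex, Timm23 was at 7.86, 7.26, 8.997, 8.51 and 7.54 in the ParkinAdi mice, against 7.34, 7.65, 7.72, 8.88 and 8.49 in the Control f/f mice. Timm17a was at 11.07, 10.61, 11.61, 11.58 and 10.67 in the ParkinAdi mice, against 10.57, 11.02, 11.07, 11.62 and 11.51 in the Control f/f mice, and Timm17b at 9.02, 9.13, 10.10, 9.86 and 8.91 in the ParkinAdi mice, against 8.78, 9.03, 9.11, 9.97 and 9.58 in the Control f/f mice. All 3 were highest in P3, P4, C4 and C5, and no pair of paralogs parted by genotype (Timm17a -0.05 (-0.62 to 0.51), Timm17b 0.11 (-0.53 to 0.75)). Timm50, which receives presequences from TOM, was at 10.42, 9.97, 11.02, 11.09 and 10.05 in the ParkinAdi mice, against 9.93, 10.28, 10.31, 11.07 and 10.78 in the Control f/f mice.

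Of the motor, Timm44 was at 9.80, 9.80, 10.08, 9.85 and 9.69 in the ParkinAdi mice, against 9.61, 9.55, 9.78, 9.94 and 9.89 in the Control f/f mice. Grpel1, the highest inner membrane member, was at 11.26, 10.78, 12.04, 12.02 and 10.92 in the ParkinAdi mice, against 10.82, 11.25, 11.20, 12.03 and 11.83 in the Control f/f mice, and Pam16, the lowest, at 6.03, 5.97, 7.44, 6.55 and 6.26 in the ParkinAdi mice, against 6.18, 6.14, 6.08, 6.87 and 6.52 in the Control f/f mice. Mouse P3 was highest for Timm44 and Pam16, with Pam16 at 7.44 there and at most 6.87 elsewhere. Timm22, the core of the carrier translocase, was at 9.23, 8.85, 10.09, 9.996 and 8.86 in the ParkinAdi mice, against 9.10, 9.47, 9.18, 10.11 and 10.01 in the Control f/f mice and had the largest downward difference of the inner membrane, -0.17 (-0.84 to 0.50). In the matrix, Pmpcb was at 11.56, 11.11, 11.91, 12.15 and 11.29 in the ParkinAdi mice, against 11.06, 11.46, 11.57, 11.97 and 11.94 in the Control f/f mice. Pmpca was at 10.50, 10.51, 10.56, 10.59 and 10.39 in the ParkinAdi mice, against 10.42, 10.59, 10.50, 10.72 and 10.69 in the Control f/f mice. Pmpca had the lowest SD of the members in ParkinAdi mice, an SD of 0.07 in ParkinAdi and 0.13 in Control f/f mice.

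The largest variation of the members lay between the library sets, within both genotypes. Of 34 members, 31 had a lower mean in the positive set, with a median difference (positive minus negative set) of -0.76 log2 units against 0.05 over all genes, and in 26 the ranges of the sets did not overlap, as in 8830 of all 19012 genes. The median was -0.72 both without P2 and without P2 and P5, with 31 members lower and 26 not overlapping in each case. Of all 19012 genes, 9038 were lower with all libraries, 9150 without P2 and 9133 without both. The sets did not overlap in 9344 of all genes without P2 and in 9590 without both. As the sets were read from the same values, this is a description. The members furthest apart were Tomm7 (-1.40), Timm8b (-1.39), Tomm5 (-1.24), Timm23 (-1.16) and Timm13 (-1.06). The 3 members that were not lower were Tomm70a (0.06), Tomm34, a cytosolic co-chaperone (0.09), and Tomm6os (0.19). Among those that were lower by little stood Pmpca (-0.15), Timm29 (-0.23), Timm44 (-0.23) and Timm21 (-0.31).

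Transcript length moved with this order. Over the 34 members the set difference and exon length had a Spearman's rho of 0.592, and over all genes 0.594, values that share the libraries that defined the sets. The 9 members under 2000 bases of exons had a median set difference of -1.06, and the 25 longer ones -0.58, against -0.53 for the 5541 short and 0.24 for the 13471 long genes of the whole table. After removal of the length trend from every library, the median set difference of the members was -0.65, against 0.03 over all genes, so the members' median stayed below that of all genes. It was -0.62 for outer membrane and -0.71 for inner membrane members. Of the members that were not lower before this removal, Tomm70a, the longest, was then at -0.50, Tomm34 at 0.18 and Tomm6os at 0.29. Without P2 the members' rho was 0.583 and the median after removal of the trend -0.62, and without P2 and P5 they were 0.593 and -0.59.

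**Figure D4:**
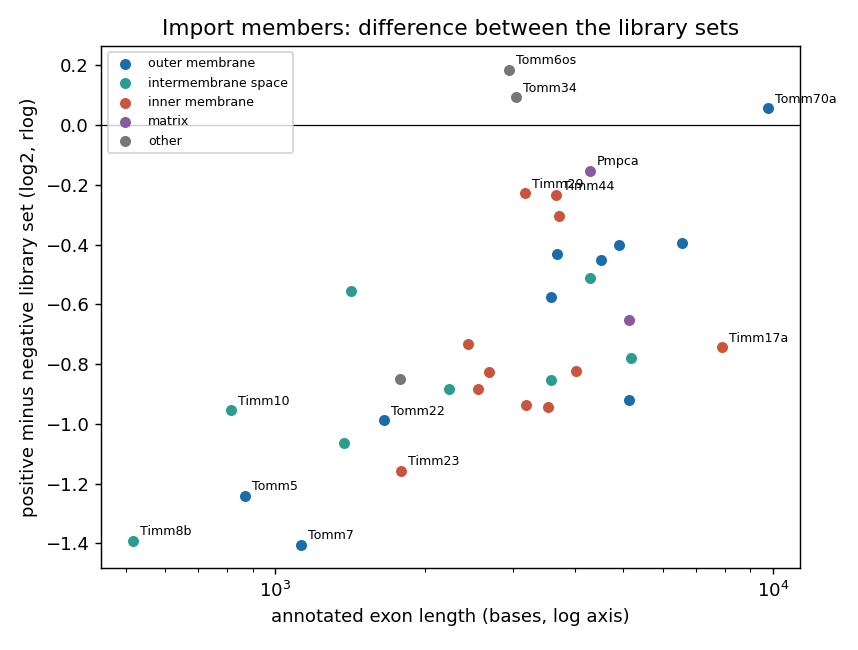
Mean of the positive minus mean of the negative library set for each of 34 members, in log2 (rlog) units, against annotated exon length in bases on a log axis, coloured by compartment. Short members such as Timm8b, Tomm5 and Tomm7 lie lowest, and Tomm70a, Tomm34 and Tomm6os lie above 0.

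Within the positive set the members moved together as well. Mouse C1 was below the mean of its set in 32 of 34 members, P5 in 29 and P2 in 27, whereas C3 was below in 3, P1 in 4 and C2 in 8. Within the negative set C5 was below the mean of its set in 29 of 34 and P3 in 9. In the positive set the low mice P2, P5 and C1 had adipocyte marker means of 14.83, 15.22 and 14.77, and the high mice P1, C2 and C3 had means of 15.57, 15.20 and 15.56. The mice of the negative set had the highest means, 15.79 in P3, 15.84 in P4, 15.82 in C4 and 15.62 in C5. Of the 13 adipocyte markers 10 were lower in the positive set. Their median set difference was -0.51, and -0.48 after removal of the length trend. The epididymal marker mean was 10.08 in P2 and 8.81 in P5, against 5.01 in P1, and 4.81 to 5.06 in C1, C2 and C3. In the negative set it was 6.54 in C5, against 4.79 in P3, 4.82 in P4 and 5.20 in C4. Whether these contents bear on the members was not tested.

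**Figure D5:**
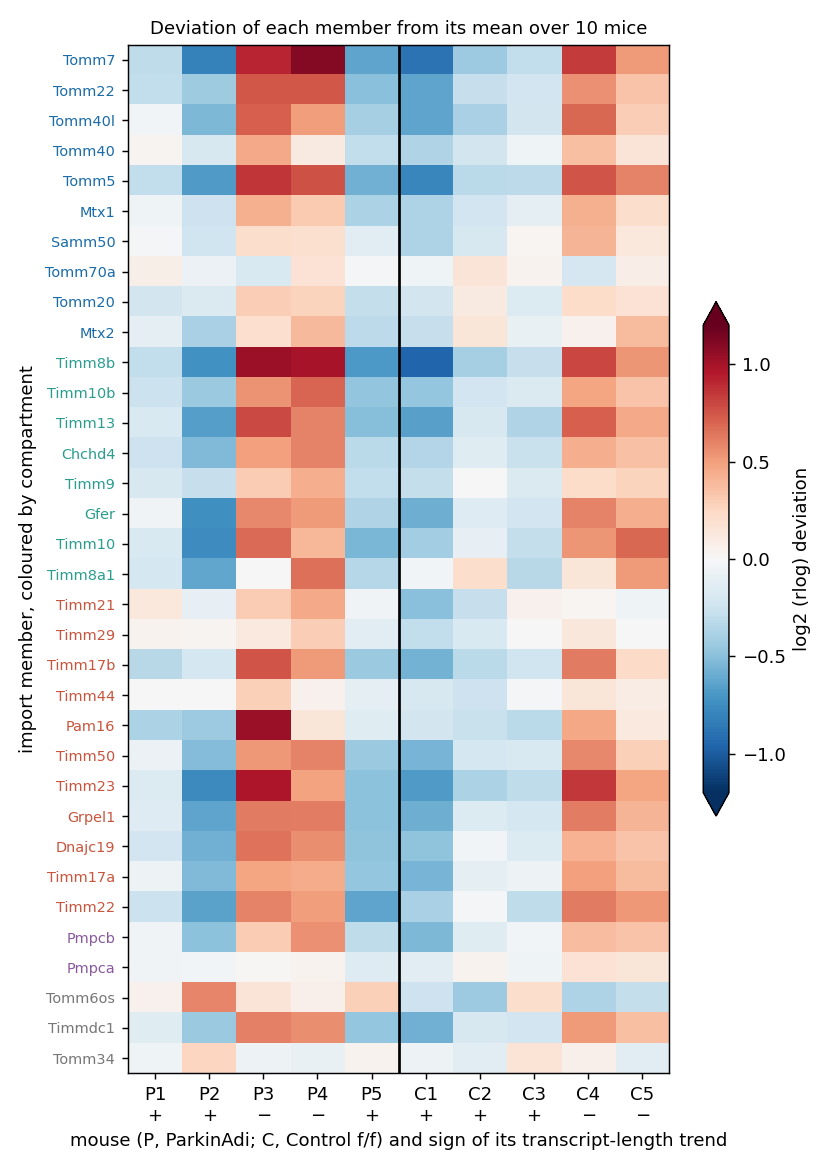
Deviation of each of 34 members from its own mean over the 10 mice, in log2 (rlog) units (colour scale), ParkinAdi mice on the left of the black line and Control f/f mice on the right, with the sign of the length trend of each library under its name. The columns P3, P4, C4 and C5 are red for nearly all members, and P2, P5 and C1 are the bluest.

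The median genotype difference of the members took either sign, depending on which mice were compared. It had a median of 0.11 within the negative set (29 of 34 above 0; 2 against 2 mice) and -0.04 within the positive set (10 of 34 above 0; 3 against 3), and 0 members were called in either. A genotype by library set interaction in limma called 0 members (0 at an unadjusted p under 0.05). Without mouse P2 the median was 0.13, with 28 of 34 above 0 (0.09 for outer membrane, 0.13 for intermembrane space and 0.14 for inner membrane members), and 0.06 with the library set as a covariate as well, with 27 of 34 above 0. Without that covariate the 1 member at an unadjusted p under 0.05 was then Timm21 and not Tomm6os. Without both P2 and P5 the median was 0.29 (32 of 34 above 0), with 1 ParkinAdi mouse of the positive set and 2 of the negative set left, and 0.13 (28 of 34 above 0) with the set as a covariate. The median was below 0 when C1 (-0.10), C2 (-0.03), C3 (-0.01), P3 (-0.10) or P4 (-0.11) was left out. No member was called in these fits.

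The promoters of the members were searched for short motifs. Whether these bear on the differences between mice or between library sets was not tested. Windows of 250 bases before to 50 after the start of the gene, from RefSeq on GRCm38.p6, matched 32 of the 35 members. The letters CCGGAAG, a core sequence of the ETS family of transcription factors (which includes GABPA, known as nuclear respiratory factor 2, a regulator of mitochondrial genes), were found on either strand in 14 of the 32 windows (43.8%), against 2033 of 12626 windows of genes in the table (16.1%). Of 24 matches in the members, 21 began no further than 100 bases before the start, and none shared bases with another motif searched. CGCANGCG, the core of the NRF1 motif, was in 7 windows (21.9%, against 15.3%). AAGATGGC (YY1) was in 2 (6.25%, against 4.16%), GGGCGG (Sp1) in 20 (62.5%, against 59.2%), CACGTG (E-box) in 5 (15.6%, against 9.52%) and TGACGTCA (CRE) in 0 (0%, against 2.84%). The 12626 windows were not filtered by level, whereas most members were above the median gene in level, so the shares compare genes of unlike levels. The ETS core and the windows below were picked after these shares were seen, and a match describes the letters and not a binding site.

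The 4 windows below are, in order, those of Tomm22, Timm23, Timm10 and Timm8b. They lie at chr15:79670618-79670917, plus strand, chr14:32201842-32202141, minus strand, chr2:84826771-84827070, plus strand and chr9:50603651-50603950, plus strand, and are written from 5′ to 3′ on the strand of the gene, with the letters of the ETS core on either strand in capitals. Where a match on each strand shares bases, the capitals run on.
Tomm22: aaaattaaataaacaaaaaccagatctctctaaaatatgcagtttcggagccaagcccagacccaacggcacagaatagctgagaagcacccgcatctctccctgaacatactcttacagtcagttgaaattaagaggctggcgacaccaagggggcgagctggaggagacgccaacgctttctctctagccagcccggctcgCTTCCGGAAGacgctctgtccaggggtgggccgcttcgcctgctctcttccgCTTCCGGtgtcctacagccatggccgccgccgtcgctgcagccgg
Timm23: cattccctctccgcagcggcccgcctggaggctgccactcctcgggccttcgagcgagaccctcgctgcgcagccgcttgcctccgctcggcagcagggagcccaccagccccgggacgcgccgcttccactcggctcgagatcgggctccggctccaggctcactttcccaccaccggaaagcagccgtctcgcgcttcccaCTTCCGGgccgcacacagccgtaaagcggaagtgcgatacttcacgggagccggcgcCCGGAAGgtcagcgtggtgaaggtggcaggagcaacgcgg
Timm10: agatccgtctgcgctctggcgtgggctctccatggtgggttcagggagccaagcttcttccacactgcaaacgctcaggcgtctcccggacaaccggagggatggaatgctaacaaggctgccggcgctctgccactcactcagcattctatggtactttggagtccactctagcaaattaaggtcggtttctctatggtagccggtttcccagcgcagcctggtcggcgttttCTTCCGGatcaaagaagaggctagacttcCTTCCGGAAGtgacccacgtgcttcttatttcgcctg
Timm8b: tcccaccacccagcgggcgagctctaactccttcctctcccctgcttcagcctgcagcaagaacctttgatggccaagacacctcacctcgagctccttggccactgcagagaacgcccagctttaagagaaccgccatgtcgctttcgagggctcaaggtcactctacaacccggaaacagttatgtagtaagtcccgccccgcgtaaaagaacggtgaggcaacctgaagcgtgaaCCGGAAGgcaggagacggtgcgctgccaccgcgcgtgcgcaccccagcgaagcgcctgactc

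In Tomm22 and Timm10 3 matches each were counted, with an overlapping pair that reads the same on both strands, in Timm23 2 and in Timm8b 1, which starts 12 bases before the start of the gene. Among the other windows, the ETS core was for example in those of Tomm70a, Tomm34, Pmpca, Timm29 and Mtx2, and not in those of Tomm5 and Timm13.

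The partners and clients of the machinery resembled the members in the genotype comparison. Of 23 import partners (mitochondrial and cytosolic chaperones, other presequence peptidases and the like), 0 were called and 0 were at an unadjusted p under 0.05, and their median difference was 0.03 (16 above 0, 7 below). Of 18 substrates of the Chchd4 relay, 0 were called and 0 at that p, with a median of 0.05 (12 above 0, 6 below). With the library set as a covariate, 3 of these genes were at an unadjusted p under 0.05 in limma (named after their values were seen). They were 2 of the 23 import partners, 1 higher and 1 lower, and 1 of the 18 substrates, which was higher. Of all genes 11.8% were at that p in the same fit, so the 3 genes do not stand out by their number. Dnaja1, a cytosolic Hsp40 co-chaperone, was at 10.57, 10.46, 10.59, 10.86 and 10.47 in the ParkinAdi mice, against 10.18, 10.36, 10.41, 10.41 and 10.47 in the Control f/f mice. Xpnpep3, a mitochondrial aminopeptidase, was at 10.18, 9.95, 9.39, 9.45 and 10.10 in the ParkinAdi mice, against 10.06, 10.26, 10.29, 9.75 and 9.90 in the Control f/f mice. Chchd7, a twin CX9C protein of the intermembrane space, was at 8.31, 8.71, 9.12, 9.50 and 8.66 in the ParkinAdi mice, against 8.23, 8.52, 8.47, 8.78 and 8.71 in the Control f/f mice. In each the groups overlapped, and all had an adjusted p of 1 without the covariate. The lists differed in how they followed the library sets: the median set difference was -0.92 for the Chchd4 substrates, whose median exon length is 1885 bases, and -0.13 for the import partners, whose median is 4787 bases.

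Nqo1, the gene delivered in the AAV8 experiment, was at 7.76, 9.54, 8.13, 8.36 and 7.67 in the ParkinAdi mice, against 7.46, 7.77, 7.99, 8.22 and 8.10 in the Control f/f mice in the Parkin experiment, with P2 highest and overlapping groups.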

How the data were processed

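The authors isolated RNA from frozen eWAT, kept samples with a high RIN, prepared mRNA libraries, sequenced them in 2 pools, aligned and counted reads with Rsubread on GRCm38 and tested counts with DESeq2 1.30.0. The authors deposited rlog values (log2 scale) per mouse for 21756 genes and, per experiment, a mean normalized count per gene (a signal without a fixed total). The deposited log2 fold changes, their standard errors, Wald score, p-values and adjusted p-values are the authors' comparisons and were not used. Depth per sample is unknown, and the pool of each library is not stated in the sources.

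Genes with a mean rlog of at least log2 of 10 (19012) entered a fit in limma 3.58.1 (R 4.3.3, lmFit, eBayes with trend, two-sided, Benjamini-Hochberg over all 19012, threshold 0.05), checked on simulated data. P-values measure the spread between these mice. Mice are numbered in column order. Exon lengths, overlaps and coordinates came from GENCODE M21 (GRCm38). The promoter table gave the first window per symbol. Other summaries used Python 3.11.15. Every member was named by role. Values per mouse were given for members at an unadjusted p under 0.05, for the extremes of level and difference in each compartment, and for core subunits and paralogs. Timm21 and the genes found with the library set covariate were described after their values were seen. Members and lists were chosen with earlier results of these data known. The level of the targeted gene is not reported here.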

Additional observations from a re-analysis of the deposited data

Results flagged for a closer look

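Of the values of members and other named genes, 2 had a mouse far from the others of its genotype (gap over range above 0.71 in 5 mice, which chance gives in about 1 of 20 groups). In all, 86 groups were examined. Epididymal markers not named above were not among them, such as Rnase9, at 12.82 in P2, and Rnase10, at 10.81 in P5. Ces5a, a transcript of the epididymis, was at 20.05 in mouse P2, against 5.59 to 5.90 in the other 4 ParkinAdi mice. Gpx5, another such transcript, was at 12.70 in mouse P5, against 4.51 to 5.71. No member of the import machinery had such a mouse, in either genotype.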

How the results depend on the processing

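No member was called under any alternative: no filter, a minimum of 50, median centring, quantile normalization, no intensity trend, robust moderation, library weights, length trend removed, library set as a covariate, or leaving out each mouse (smallest adjusted p of a member 0.0734, with library weights). The median difference of the members, 0.02, changed sign with the mice compared. Leaving out each mouse gave -0.11 (without P4) to 0.14 (without C4) for all members, -0.08 to 0.14 for outer and -0.16 to 0.18 for inner membrane members, with 6 to 28 of 34 above 0. Library weights gave -0.01, 5 members at an unadjusted p under 0.05 (14.7%, against 17.2% of all genes) and 543 called genes in the whole table, against 0, with a weight of 12.4 for C2. Without C3, 11 genes were called, none a member, and within the negative set 23, none a member. With the length trend removed and without P2 the median was 0.14 (29 of 34 above 0). The within-set fits, the interaction and the fits without P2 and P5 or that combine a correction with leaving out P2 were added after the data were seen. No paired analysis was possible because the columns carry no replicate numbers.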
